A study of Homo sapiens with 3 samples.

Results

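A498 is an established epithelial line from a human kidney carcinoma that lacks functional VHL, and the data described here are the messenger RNA levels of its control culture. The control array was the 1 array of 3 in the series that came from cells given no bacteria and no inhibitor. It was identified by its title, and it was chosen with earlier results of these data known. Its culture was not wholly untreated, since the cells had been kept for 4 h in medium with 0.08% DMSO, the solvent control. As for all 3 cultures, the layer was confluent, had grown in RPMI with 5% fetal calf serum, 1 mM pyruvate, 1 mM non-essential amino acids and 50 µg/ml gentamicin, and was moved to fresh serum-free RPMI with gentamicin at the start of the 4 h. The other two cultures received E. coli 83972, a bacterium whose concentration the labels give inconsistently, or 60 µM of DRB, an inhibitor of transcription elongation, and neither is described here. All 3 arrays are labelled as experiment 2. The line is 1 tumour's descendant, so its profile describes A498 and not kidney carcinoma as a class, and the control group has no replicate array, so no value below has an error between cultures, no test was made, and having 1 array limits how precise any value can be.

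VHL is the substrate-binding part of a ubiquitin ligase that marks the hydroxylated alpha subunits of the hypoxia-inducible factors (HIF) for destruction. Prolyl hydroxylases of the EGLN family attach the hydroxyl groups when oxygen is present. Loss of VHL is the founding lesion of most clear cell kidney carcinomas, and it leaves the HIF alpha subunits stable in normal oxygen, where they pair with ARNT and bind the core sequence ACGTG near genes of glycolysis, angiogenesis and lipid storage.

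Each gene was represented by its brightest probe set with 1 gene symbol, which gave 18239 named genes, and was placed by its log2 level and by its percentile, the percent of named genes at or below that level. Probes differ in how strongly they bind, so a percentile orders signals and not copies of messenger RNA, and no gene is ranked against another by abundance. The background limit was 5.12 on the log2 scale, the 95th percentile of 334 olfactory receptor genes, a family read here as silent outside the nose. Of 84 keratin-associated (KRTAP) genes, used below for an alternative limit, 23 (27.4%) also lay above 5.12. Nonspecific control probe sets with a GC count of 24 and 25 read 5.59 and 7.62, while none with a lower count exceeded 4.98. A level above the limit is therefore not by itself evidence of a transcript. On this array 10372 named genes, or 56.9%, lay above it, and each list's share below is to be read beside that share. The olfactory receptor genes had a median of 3.84 and ranged from 2.72 to 8.0, with 17 above the limit by its construction. The median over all named genes was 5.65, the 90th percentile 9.42 and the 99th percentile 11.88. Control transcripts spiked into the hybridization came out in their designed order, bioB at 7.05 to 7.37, bioC at 8.30 to 8.46, bioD at 10.92 to 11.27 and cre at 12.15 to 12.65. The 3′ and 5′ control probe sets read 12.77 and 12.69 for GAPDH, and 12.63 and 10.66 for actin. Of 8025 genes above the limit with at least 2 probe sets, 5459 (68.0%) had a second probe set above it too, and the share of genes above the limit was 36.6% with 1 probe set, 56.9% with 2 and 75.4% with 3 or more. The median SD over the probe sets of a gene above background was 1.25 on the log2 scale, so the mean ± SD over a gene's probe sets, given below, measures disagreement between probe sets and not between cultures.

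**Figure D1:**
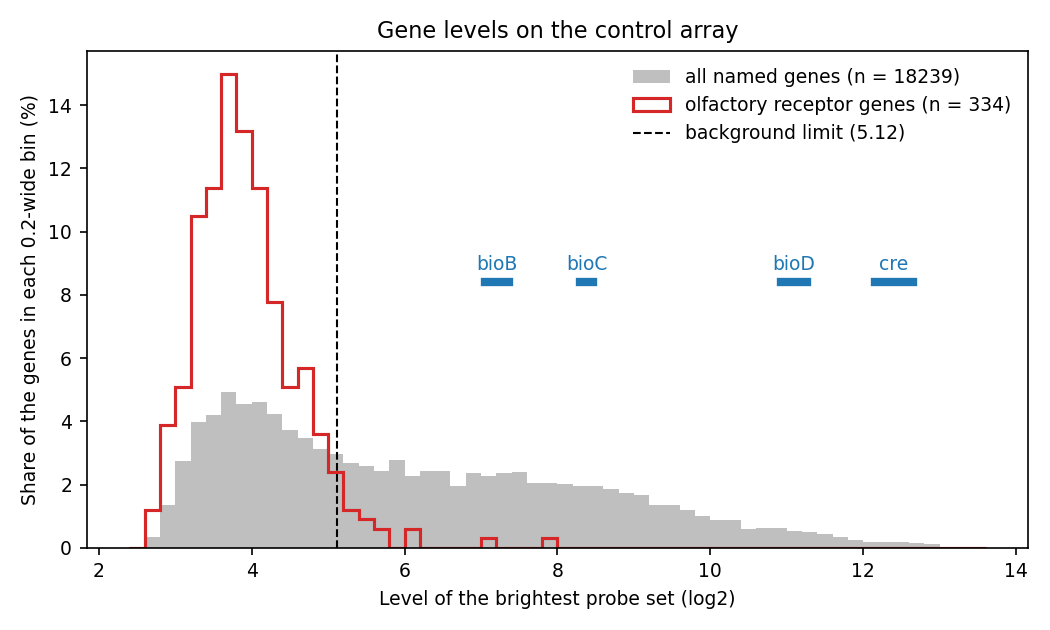
Distribution of the log2 level of the brightest probe set over 18239 named genes (grey) and 334 olfactory receptor genes (red outline) on the control array; the vertical axis is the percent of genes in each 0.2-wide bin. The dashed line is the background limit of 5.12, which 56.9% of named genes passed, and the blue bars span the probe sets of each spiked control transcript, from bioB at 7.05 to cre at 12.65.

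Ribosomal protein genes made up 15 of the 30 brightest genes and 65 of the 183 above percentile 99, and 70 of the 80 named lay above percentile 90. The highest level was that of FTL, the light chain of the iron store ferritin, at 13.21 (13.02 ± 0.25, mean ± SD over 8 probe sets). It was followed by AKR1B10, an aldo-keto reductase that reduces aldehydes and retinal, at 13.18 (13.07 ± 0.15 over 2). Other genes among the 30 were MGST1, a microsomal glutathione transferase, at 12.86 (12.42 ± 0.43 over 3), TXN, the redox protein thioredoxin, at 12.82 (12.52 ± 0.20 over 5), and MT2A, a metal-binding metallothionein, at 12.87 from 1 probe set. SPP1, which encodes the secreted phosphoprotein osteopontin, read 12.89 (12.78 ± 0.09 over 6), and all 6 of its probe sets were close together. VIM, the intermediate filament vimentin, read 12.85 (12.82 ± 0.04 over 2), TMSB10, an actin-binding thymosin, 12.94 (12.93 ± 0.02 over 2), and B2M, the light chain of class I histocompatibility molecules, 12.85 (12.57 ± 0.19 over 8). Cytoskeletal and housekeeping genes, listed as a check, were all above background (32 of 32, median percentile 99.3), among them the actin gene ACTB at 12.63 (11.71 ± 0.68 over 6) and the tubulin gene TUBA1B at 12.62 (12.57 ± 0.07 over 2). The remaining non-ribosomal entries of the 30 were TPT1, PTMA, PABPC1, EEF1A1 and EIF4A1, genes of growth and translation, and DCAF6. The last, a ligase adaptor, read 12.86 on its brightest probe set but 9.10 on the second and 9.20 ± 1.95 over 6, so its place rested on 1 probe set. RPS20 likewise read 12.87 on 1 probe set and 4.21 on the next. Most ribosomal protein genes have processed pseudogenes, and sharing of signal with them was not tested.

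Genes known from clear cell kidney carcinoma were high as a group: 22 of 27 measured, or 81.5% beside 56.9% of all named genes, were above background, and their median percentile was 93.1 beside 50 for all. Besides SPP1 they included CA12, a membrane carbonic anhydrase, at 12.06 (10.10 ± 2.52 over 5 probe sets, all above the limit), IGFBP3, a carrier of insulin-like growth factors, at 12.19 (11.50 ± 0.97 over 2), and TGM2, a protein-crosslinking transglutaminase, at 11.79 (7.71 ± 2.86 over 4). PLIN2, the coat protein of lipid droplets, read 11.67 (11.15 ± 0.73 over 2). CD70, a ligand of the lymphocyte receptor CD27, read 11.11 (9.83 ± 1.81 over 2), and NNMT, which methylates nicotinamide, 9.93 from 1 probe set. The 5 members at or below the limit were the dopamine transporter SLC6A3 (4.65), the vesicular nucleotide transporter SLC17A9 (4.32), the ectonucleotide hydrolase ENPP3 (3.86), the endothelial proteoglycan ESM1 (3.61) and the fatty acid binding protein FABP7 (3.50), and none of their probe sets passed it. SLC6A3, ENPP3, ESM1 and FABP7 are commonly listed as markers of this carcinoma, so A498 carried part of the list and not all of it. CA9 and NDUFA4L2, which belong to the same list, were not analysed here because no probe set with 1 symbol named them. The carcinoma list was written with earlier results of these data known, so its height may partly follow from the choice of members. It shares CA12, PLIN2 and VEGFA with the list of HIF targets below.

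Transcription factors of kidney development passed the limit about as often as all genes, while most genes of working nephron cells did not pass. Of 22 developmental transcription factors measured, 12 (54.5%) were above background beside 56.9% of all named genes, with a median percentile of 49.4. The share was 36.4% beside 45.8% with the mean over each gene's probe sets, and 45.5% beside 33.6% with plain-suffix (_at) probe sets alone. The factors named next are examples above the limit, and 10 members were at background. PAX8, which specifies the nephric lineage and marks renal carcinomas, read 7.07 (6.23 ± 0.62 over 4 probe sets, all above the limit), and its paralogue PAX2 5.69 (5.45 ± 0.34 over 2, both above). LHX1, a homeodomain factor of the early kidney tubule, read 8.74 (6.19 ± 2.57 over 3). SOX9, a factor of the developing and regenerating tubule, read 8.66 (6.99 ± 1.53 over 3), IRX3 8.33 (8.12 ± 0.30 over 2) and SALL1 6.72 (5.89 ± 1.38 over 3).

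Proximal tubule genes, which serve reabsorption, had 12 of 34 (35.3%) above background and a median percentile of 33.8. The endocytic receptors LRP2 (megalin, 4.44; 3.43 ± 0.61 over 5 probe sets) and CUBN (cubilin, 4.80), the water channel AQP1 (3.75; 3.53 ± 0.19 over 3) and the injury marker HAVCR1 (4.89) did not pass the limit on any probe set. The phosphate transporter SLC34A1 lay at 5.23, just above the limit on 1 of 3 probe sets. Members with a high level were CD24, a surface glycoprotein, at 12.23 from 1 probe set, the peptidases ANPEP at 10.44 (8.97 ± 2.09 over 2) and DPP4 at 10.33 (9.53 ± 1.14 over 2), the bicarbonate transporter SLC4A4 at 9.66 (5.73 ± 2.52 over 5, 3 above), and the endocytic adaptor DAB2 at 8.82 (7.91 ± 0.83 over 4). Of 25 genes of other nephron segments, 6 (24%) passed, with a median percentile of 25.9. SYNPO, an actin-associated protein of podocytes, read 8.81 on its brightest probe set, with 2 of 5 above, while the slit diaphragm gene NPHS1 (3.30) and the loop transporter SLC12A1 (3.87) were below the limit and the collecting duct water channel AQP2 read 5.24 on 1 of 3 probe sets.

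HOX genes, whose combination records position along the body axis, were read in 3 of their 4 clusters; of HOXA only HOXA2 had a usable probe set, so that cluster is not described. In all, 19 of 29 (65.5%) passed the limit, but their median percentile was 47.9, and at the stricter limit of 5.99 the share (34.5%) lay below that of all genes (45.5%). By cluster the counts were 9 of 10 for HOXB, 6 of 9 for HOXC and 3 of 9 for HOXD. HOXB2 read 9.26 and HOXB7 8.36, each from 1 probe set, and HOXB3 7.52 (5.58 ± 1.54 over 4). In the HOXC cluster HOXC6 read 8.12 (6.63 ± 2.25 over 3) and HOXC10 5.75. In HOXD, HOXD10 read 8.21 (7.08 ± 1.61 over 2) and HOXD8 7.24 (6.92 ± 0.46 over 2), while HOXD11, which patterns the kidney and limb, read 4.10. HOX genes of different clusters with the same number are alike in sequence, and cross-hybridization was not tested.

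**Figure D2:**
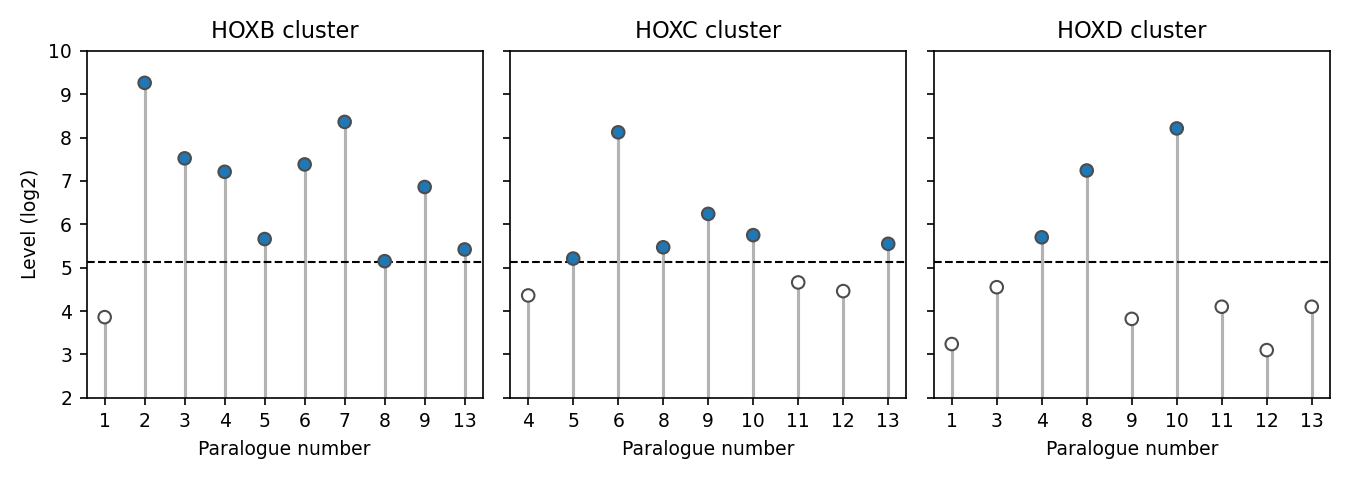
Log2 level of the brightest probe set of each measured HOX gene in the HOXB, HOXC and HOXD clusters on the control array, ordered by paralogue number; filled points lie above the background limit (dashed). HOXB had 9 of 10 genes above the limit, HOXC 6 of 9 and HOXD 3 of 9.

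The simple epithelial keratins KRT18, KRT8 and KRT19 were above background, beside genes of a mesenchymal programme. KRT7 and several epithelial identity genes were at background. KRT18 read 11.63 (11.43 ± 0.28 over 2 probe sets), its partner KRT8 10.28 (9.60 ± 0.36 over 8, all above) and KRT19 8.29, whereas KRT7 (4.35) was not above the limit. Keratins of stratified epithelia were mixed: KRT10 read 9.88 and KRT15 9.21, each from 1 probe set, KRT4 5.94 (5.67 ± 0.37 over 2, both above), and KRT5 (4.89) and KRT14 (3.70) did not pass. KRT80 read 5.64. In all, 7 of 14 keratin genes passed (50.0% beside 56.9% of all named genes, median percentile 44.6). The side changed with the mean over each gene's probe sets (50.0% beside 45.8%) and with the dimmest (50.0% beside 29.4%). Of 25 epithelial junction genes 11 (44.0%) passed, with a median percentile of 35.2. E-cadherin CDH1 read 4.17 (3.8 ± 0.53 over 2), the adhesion molecule EPCAM 3.43 (3.30 ± 0.11 over 3) and the epithelial splicing factor ESRP1 3.28 (3.06 ± 0.31 over 2), and no probe set of these 3 genes passed. The tight junction protein CLDN1 read 9.95 (7.38 ± 2.16 over 4), CLDN4 7.71 (7.40 ± 0.54 over 3) and the desmosomal plakin DSP 8.48 (7.32 ± 1.65 over 2). The kidney cadherin CDH6 read 8.51 (7.63 ± 1.10 over 3).

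Mesenchymal programme genes had 15 of 19 (78.9%) above background and a median percentile of 68.7. Besides VIM, N-cadherin CDH2 read 10.65 (9.87 ± 1.10 over 2 probe sets), fibronectin FN1 10.84 (7.68 ± 2.24 over 8), the matrix protein SPARC 12.20 (10.02 ± 2.03 over 9, all above) and the hyaluronan receptor CD44 12.33 (10.27 ± 1.36 over 10, all above). The repressor ZEB1 read 7.22 (5.77 ± 1.39 over 7, 6 above). The 4 members at background were the transcription factors TWIST1 (3.02), TWIST2 (3.92), PRRX1 (3.82) and FOXC2 (3.67).

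The 4 lists of markers of other cell types had 22.2% to 40.9% of their members above background. The share was 56.9% of all named genes and 27.4% of the 84 KRTAP genes. The leukocyte list had 4 of 18 above the limit and a median percentile of 31.7, with the pan-leukocyte phosphatase PTPRC at 3.41 (3.10 ± 0.28 over 6 probe sets), CD14 at 3.33 and CD3E at 4.80. Its members above were CD68, a lysosomal protein not limited to macrophages, at 9.08, the adhesion molecule NCAM1 at 7.19, ITGAX at 6.04 on 1 of 4 probe sets and CD2 at 5.32 on 1 of 2. The endothelial list had 4 of 14 above (median percentile 32.6), none of them on all of its probe sets: EGFL7 at 5.85 (2 of 3 probe sets above), VWF at 5.53 (1 of 5), PECAM1 at 5.37 (1 of 2) and TIE1 at 5.30 (1 of 7). CDH5 read 4.01 and KDR 4.18, with no probe set above. The fibroblast and mural list had 4 of 15 above (median percentile 25.5): FBLN1 (8.17), ACTA2 (8.08, on 1 of 3 probe sets), POSTN (7.12) and RGS5 (5.87), with COL1A1 at 5.03, COL3A1 at 3.57, DCN at 3.55 and PDGFRB at 4.58. Among hepatocyte, neuron, muscle and erythroid markers 9 of 22 passed, with a median percentile of 33.7. The neurofilament gene NEFL stood at 11.85 (11.29 ± 0.57 over 3, all above), the microtubule protein MAP2 at 8.19 (6.95 ± 1.32 over 3) and GAD1, which makes the transmitter GABA, at 7.68 (6.39 ± 2.20 over 3, 2 above), while albumin ALB read 3.58. The synaptic vesicle gene SYP read 6.34 (1 of 3 probe sets above), SNAP25 5.82 (2 of 4), the beta globin gene HBB 6.13 (1 of 2), the muscle filament gene DES 5.76 (1 of 2) and the protease inhibitor SERPINA1 5.40 (1 of 4). In RNA from a whole culture, a low level in all cells and a higher level in few of them cannot be told apart.

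**Figure D3:**
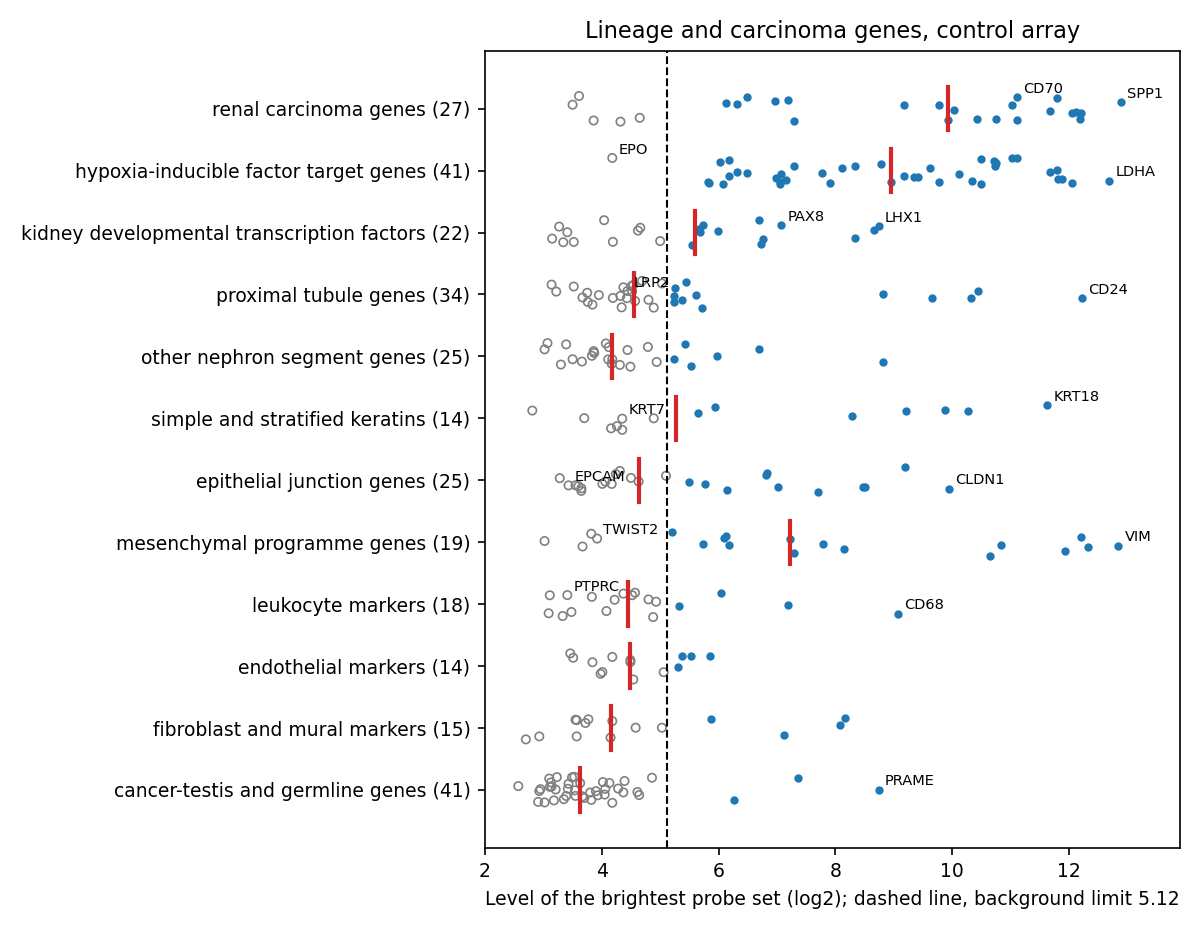
Log2 level of the brightest probe set of each measured gene in 12 lists on the control array; numbers in brackets are the genes measured, filled points lie above the background limit of 5.12 (dashed), open points do not, and red bars are list medians. Renal carcinoma and HIF target genes lie mostly to the right of the limit (22 of 27 and 40 of 41), leukocyte and cancer-testis genes mostly to the left (4 of 18 and 3 of 41 above).

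Genes of the VHL and HIF machinery had 15 of 17 (88.2%) above background and a median percentile of 86.2. VHL itself read 6.72 (6.51 ± 0.30 over 2 probe sets, both above), which is a level of transcript and says nothing about the function of its protein. Its ligase partners were bright: elongin C, ELOC, at 11.31 (10.24 ± 1.81 over 3), elongin B, ELOB, at 11.27 (11.11 ± 0.22 over 2), RBX1 at 10.63 and CUL2 at 9.34. HIF1A, one alpha subunit, read 11.55 (9.15 ± 1.23 over 8, all above), and EPAS1, which encodes HIF-2 alpha, 9.34 on its brightest probe set and 4.57 on the other. The common partner ARNT lay at 4.93 (4.37 ± 0.48 over 5) and passed the limit on none of 5 probe sets. The hydroxylases EGLN1 and EGLN3 read 9.91 (8.26 ± 1.43 over 3) and 9.78 (7.78 ± 2.66 over 3). Besides ARNT, only the VHL-like gene VHLL (3.25) was at background.

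Of 41 known HIF target genes 40 (97.6%) were above the limit and 17 lay above percentile 90, with a median percentile of 86.5. Lactate dehydrogenase LDHA read 12.69 (12.52 ± 0.16 over 4 probe sets), phosphoglycerate kinase PGK1 11.88 (10.97 ± 0.65 over 9, all above) and aldolase ALDOA 11.82 (11.56 ± 0.38 over 2). The angiogenic factor VEGFA read 11.12 (7.56 ± 2.21 over 10, all above), the vasodilator peptide ADM 10.73 (9.65 ± 1.86 over 3), the growth factor TGFA 11.03 (7.81 ± 2.4 over 4) and the glucose transporter SLC2A1 10.12 (8.10 ± 2.03 over 4). NDRG1, a stress-induced protein, read 11.80 on its brightest probe set and 6.88 on the second (7.56 ± 2.08 over 6). The 1 target at background was EPO, the hormone erythropoietin, at 4.18 from 1 probe set. The list holds targets known from the general literature of HIF. Like the carcinoma list, it was written with earlier results of these data known, so its height may partly follow from the choice of members. Many members, such as the glycolysis genes, are also bright in most cultured cells. The height of the list on 1 array therefore does not measure HIF activity.

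Promoter sequences, taken from RefSeq on GRCh38.p14 as 300 bases from 250 before to 50 after the first listed start, were matched for 14492 of the 18239 genes. They were searched for ACGTG on both strands, a CACGTG counted as 1 match. It was present in 16 of 32 HIF target promoters (50.0%), in 27.3% of promoters of all genes above background, in 18.9% of those not above it and in 21.6% of the 27305 genes of the whole table. Among CpG-rich promoters, as defined below, of genes above background the share was 29.1%, and 84.4% of the target promoters were CpG-rich. The match was not particular to HIF targets. It was present in 9 of 12 HOX promoters and in 9 of 18 gluconeogenesis and glycogen promoters, and no other list exceeded 40.0%. Of the 32 targets, 31 were above background, so passing the limit cannot be set against the match, and levels were not compared between targets with and without it. The 3 targets above percentile 90 with more than 1 match are shown so that their number and spacing can be seen, with the matches in capitals (ACGTG, or CACGT where it lies on the other strand, or the palindrome CACGTG). They are LDHA at chr11:18394313-18394612 on the plus strand, PGK1 at chrX:78103998-78104297 on the plus strand and PLIN2 at chr9:19127443-19127742 on the minus strand, each printed 5′ to 3′ along its gene.
LDHA: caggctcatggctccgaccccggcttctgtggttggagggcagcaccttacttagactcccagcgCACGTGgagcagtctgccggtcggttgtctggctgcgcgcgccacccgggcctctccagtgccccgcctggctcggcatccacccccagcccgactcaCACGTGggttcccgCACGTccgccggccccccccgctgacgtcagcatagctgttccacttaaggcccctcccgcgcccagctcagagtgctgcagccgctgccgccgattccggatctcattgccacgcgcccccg
PGK1: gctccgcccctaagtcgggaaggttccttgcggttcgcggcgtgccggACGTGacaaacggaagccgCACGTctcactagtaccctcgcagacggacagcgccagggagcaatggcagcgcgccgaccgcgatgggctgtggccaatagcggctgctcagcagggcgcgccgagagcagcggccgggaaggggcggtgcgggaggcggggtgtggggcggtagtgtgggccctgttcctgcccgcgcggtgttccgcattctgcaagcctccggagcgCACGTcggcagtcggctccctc
PLIN2: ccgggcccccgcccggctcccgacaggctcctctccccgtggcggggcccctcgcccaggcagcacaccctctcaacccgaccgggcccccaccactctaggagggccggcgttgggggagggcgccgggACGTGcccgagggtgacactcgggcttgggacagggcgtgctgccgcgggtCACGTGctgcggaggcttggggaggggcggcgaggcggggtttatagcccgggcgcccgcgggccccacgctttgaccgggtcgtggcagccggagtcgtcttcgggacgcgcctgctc
LDHA and PGK1 hold 3 matches each and PLIN2 holds 2. A match is a string of letters and no sign of binding in these cells. CA12, ADM and SLC2A1 had no match, which says only that these letters are not in this window.

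In central carbon metabolism the glycolysis genes had 21 of 27 (77.8%) above background, a median percentile of 78.7 and 5 members above percentile 99. GAPDH read 12.78 (12.70 ± 0.10 over 4 probe sets), PGAM1 12.53 (11.42 ± 0.86 over 4), TPI1 11.98 (11.50 ± 0.54 over 3) and LDHB, the other lactate dehydrogenase subunit, 12.43. Of the hexokinases, HK1 read 9.78 (7.94 ± 1.5 over 4) and HK2 6.85 (6.12 ± 1.03 over 2), and pyruvate kinase PKM read 8.15 (6.03 ± 2.67 over 5, 3 above). Among 18 glucose and lactate transporters 9 passed (median percentile 44.1), with SLC2A1 at the top and BSG, the chaperone of lactate transporters, at 8.38 (7.0 ± 0.69 over 6, all above).

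Of the enzymes by which a normal proximal tubule makes glucose, FBP1 (3.95), PCK1 (3.76; 3.33 ± 0.36 over 5 probe sets) and G6PC1 (4.65; 4.39 ± 0.24 over 3) passed on no probe set. The wider list of gluconeogenesis and glycogen genes had 14 of 22 above, a median percentile of 56.3, with UGP2, which makes UDP-glucose, at 11.28, the glycogen phosphorylase PYGL at 9.42 and the branching enzyme GBE1 at 8.96, each from 1 probe set. SLC37A4, the glucose-6-phosphate transporter that glucose release requires, read 8.30 (6.34 ± 1.94 over 6, 4 above), and glycogen synthase GYS1 6.38 on 1 of 3.

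Mitochondrial and biosynthetic pathways were well represented. Citrate cycle and pyruvate dehydrogenase genes had 27 of 30 above and a median percentile of 85.4, with MDH1 at 11.75 (11.66 ± 0.13 over 2 probe sets), the cytosolic citrate lyase ACLY at 11.46 (10.52 ± 1.33 over 2) PDHA1, a subunit of pyruvate dehydrogenase, at 8.85 (8.27 ± 0.84 over 5, all above) and citrate synthase CS at 9.54 (6.27 ± 3.16 over 3). The 3 members at background were all pyruvate dehydrogenase kinases, PDK2 (4.83), PDK3 (4.88) and PDK4 (3.73). Pentose phosphate genes had 9 of 10 above (median percentile 85.6), all but TKTL1 (3.66), with transketolase TKT at 11.25 (8.99 ± 3.91 over 3). TALDO1 read 12.41 on 1 probe set and 4.15 on its other. Fatty acid and cholesterol synthesis genes had 33 of 34 (97.1%) above and a median percentile of 78.8: the desaturase SCD at 12.20 (8.15 ± 2.74 over 4), INSIG1, which retains the sterol sensor, at 10.78 (9.28 ± 1.33 over 3), squalene epoxidase SQLE at 9.92 (9.19 ± 1.13 over 4), FDPS at 9.83 on both probe sets and fatty acid synthase FASN at 6.49. The 1 exception was SOAT2 (4.69), a cholesterol esterifying enzyme of liver and gut.

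Fatty acid oxidation and lipid droplet genes had 27 of 39 (69.2%) above and a median percentile of 59.6. PLIN2 gave the brightest signal, with the lipase MGLL at 10.40 (9.35 ± 1.34 over 6 probe sets), the long-chain dehydrogenase ACADVL at 10.21 (8.28 ± 1.85 over 3) and ACADM at 9.78 (7.52 ± 1.45 over 7, all above). CPT1A, the entry step for fatty acids into mitochondria, read 8.59 on 1 probe set and 3.90 on the other, and HILPDA, an inhibitor of lipolysis at the droplet, 7.16 (6.63 ± 0.75 over 2). Amino acid and nicotinamide genes had 34 of 47 (72.3%) above and a median percentile of 76.6. In that list NAMPT, which salvages nicotinamide, read 11.47 (8.60 ± 4.74 over 3), the kynurenine enzyme KYNU 10.89 (8.61 ± 2.98 over 3), PHGDH, the first enzyme of serine synthesis, 8.32, PSAT1 of the same route 10.35 (8.20 ± 1.2 over 8, all above), MTHFD2 of mitochondrial folate metabolism 10.42 (9.90 ± 0.64 over 5) and asparagine synthetase ASNS 9.71 (9.25 ± 0.51 over 4). ASS1, the arginine-making argininosuccinate synthase that the healthy proximal tubule expresses, lay at 3.69 (3.48 ± 0.31 over 2) and passed on neither probe set.

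A list of NRF2 and antioxidant genes was added after the brightest genes had been seen, because FTL, AKR1B10, MGST1 and TXN belong to it, so its height is partly a consequence of its choice. NRF2, the product of NFE2L2, is a transcription factor held back by KEAP1 that drives genes of thiol and quinone metabolism. Of 33 members 31 (93.9%) were above, 25 over percentile 90, with a median percentile of 97.2. NQO1, a quinone reductase and classic target, read 12.47 (12.18 ± 0.41 over 2 probe sets), GCLM, a subunit of the glutathione-making ligase, 11.62 (10.57 ± 1.5 over 2), the peroxiredoxin PRDX1 12.79, and HMOX1, which degrades haem, 10.15 (9.21 ± 0.83 over 3). AKR1C3 read 12.77 on 1 probe set and 3.47 on the other. NFE2L2 itself read 11.22 (10.67 ± 0.78 over 2) and KEAP1 8.41. The members at background were GPX2 (3.47) and ALDH3A1 (3.45), both of which are targets in other epithelia. The sequence of KEAP1 or NFE2L2 in these cells cannot be read from levels.

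Metallothioneins, small proteins that hold zinc and copper, were split: MT2A read 12.87, MT1X 8.61 (8.26 ± 0.49 over 2 probe sets) and MT1E 5.61, while MT1H (3.57), MT1M (3.36), MT3 (4.78) and MT4 (3.93) were at background. These genes are near copies, and sharing of signal between probe sets was not tested. The iron exporter SLC40A1 read 3.43 (3.23 ± 0.28 over 2), beside FTL, the transferrin receptor TFRC at 11.40 (9.22 ± 3.24 over 3) and the zinc exporter SLC30A1 at 10.47 (9.06 ± 2.00 over 2). The whole list had 12 of 17 above and a median percentile of 58.7. The MT2A promoter at chr16:56608334-56608633, plus strand, is shown because it joins a TATA box match, TATAAA in capitals with its first base 29 bases before the start, to a CpG-rich window with an observed over expected CpG of 0.96.
MT2A: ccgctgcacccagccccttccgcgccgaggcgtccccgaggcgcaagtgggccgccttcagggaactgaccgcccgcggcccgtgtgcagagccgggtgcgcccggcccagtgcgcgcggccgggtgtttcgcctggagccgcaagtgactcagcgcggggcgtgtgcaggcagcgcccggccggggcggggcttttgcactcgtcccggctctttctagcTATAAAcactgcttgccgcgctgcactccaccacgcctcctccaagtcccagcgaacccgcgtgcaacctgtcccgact

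Receptors were represented unevenly by class. Receptor tyrosine kinases had 19 of 49 (38.8%) above background and a median percentile of 38.3. MET, the receptor of hepatocyte growth factor, read 11.57 (7.13 ± 3.18 over 6 probe sets, 4 above, the second at 10.44), DDR1, a collagen receptor, 9.57 (6.91 ± 2.45 over 4), AXL 9.06 (7.66 ± 1.97 over 2), FGFR1 8.91 (6.35 ± 1.91 over 7) and EGFR 8.19 (5.61 ± 1.78 over 8, 5 above). ERBB2 read 7.03 (5.19 ± 1.46 over 5), IGF1R 5.61 (4.34 ± 1.06 over 7) and the insulin receptor INSR 4.82 (4.16 ± 0.59 over 5), which passed on no probe set. TGF-beta and BMP receptors had 11 of 14 above (median percentile 56.0), though their share fell below that of all genes when the dimmest probe set represented each gene (21.4% beside 29.4%). TGFBR2 read 9.95 and 5.35 on its probe sets and TGFBR1 9.23 on 1 of 3. ACVR1 read 9.80 (6.96 ± 2.34 over 4, 3 above) and BMPR2 7.70 (7.32 ± 0.55 over 3), and the 3 members at background were ACVRL1 (4.57), ACVR1C (4.23) and BMPR1B (3.46).

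Toll-like receptors with their accessory and signalling genes had 8 of 22 (36.4%) above background and a median percentile of 30.3. Only part of this list senses bacteria, which the other arrays of the study bear on. TLR4, the receptor of lipopolysaccharide, read 5.64 (4.72 ± 0.82 over 3 probe sets, 1 above), while its co-receptor LY96 read 8.73 from 1 probe set. CD14, which hands lipopolysaccharide to that pair, lay at 3.33 (3.16 ± 0.25 over 2). TLR3, a sensor of double-stranded RNA, read 7.23, the flagellin receptor TLR5 4.12 and the lipopeptide receptor TLR2 3.69 (3.35 ± 0.40 over 3). Of the signalling genes, the adaptor MYD88 read 7.08 on 1 of 5 probe sets (4.55 ± 1.48), the adaptor TICAM1 6.47, the kinase IRAK1 8.73 and TRAF6 5.39. NOD1, a sensor of peptidoglycan, read 6.19 (5.39 ± 0.74 over 4).

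Cytokine receptors had 34 of 51 (66.7%) above, beside 56.9% of all named genes, and a median percentile of 51.0. The share was near that of all genes with the mean over each gene's probe sets (47.1% beside 45.8%) and at the limit of 5.99 (47.1% beside 45.5%). The shared receptor of the interleukin 6 family, IL6ST, read 9.96 (6.39 ± 2.08 over 8 probe sets, 6 above), but its private partner IL6R 3.98 (3.83 ± 0.17 over 4, none above). OSMR, the oncostatin M receptor, read 7.37 (5.33 ± 1.39 over 5). The death receptors TNFRSF10B and FAS read 10.64 (7.46 ± 2.77 over 3) and 9.02 (8.92 ± 0.14 over 2), TNFRSF1A 8.37 (6.23 ± 1.56 over 4), and IL1R1 8.89 on 1 probe set and 3.47 on the other. The interferon receptor chains IFNAR1 and IFNGR1 read 8.53 (7.83 ± 0.61 over 4) and 8.06 (6.86 ± 1.70 over 2).

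Of 20 chemokine receptors only 3 (15%) passed, with a median percentile of 20.7. CXCR4, the receptor of CXCL12 and a known HIF target, read 10.76 (9.99 ± 0.80 over 4 probe sets, all above), and ACKR3, a scavenging receptor of the same ligand, 9.03 (7.38 ± 1.11 over 4, all above). The ligand CXCL12 itself lay at 4.01 (3.24 ± 0.46 over 5, none above). The remaining member above was ACKR1 (5.72), and CXCR1 (4.99) and CXCR2 (3.58), the receptors of CXCL8, were at background. Among 43 other G protein-coupled receptors 14 (32.6%) passed, with a median percentile of 34.4. ADGRG1, an adhesion receptor, read 10.80 (7.66 ± 2.80 over 3), the adenosine receptor ADORA2B 9.04 and the sphingosine phosphate receptor S1PR3 7.68, while the thrombin receptor F2R read 4.12 and the lysophosphatidic acid receptor LPAR1 5.96 on 1 of 4 probe sets.

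Integrin subunits had 15 of 26 (57.7%) above, beside 56.9% of all genes, and a median percentile of 47.1. The share was 30.8% beside 45.8% with the mean over each gene's probe sets and 15.4% beside 29.4% with the dimmest. ITGB1, the shared beta chain, read 12.72 (9.40 ± 3.87 over 5 probe sets, 4 above), ITGAV 11.66 (8.67 ± 2.04 over 5, all above), ITGB5 9.27, ITGA6 9.24 (7.20 ± 2.64 over 3) and ITGA3 9.0 (6.27 ± 2.49 over 3). ITGAE read 9.96 from 1 probe set, ITGB3 7.07 (5.24 ± 1.32 over 7, 5 above) and ITGA2 7.61 (7.34 ± 0.38 over 2). ITGA5, the alpha chain of the fibronectin receptor, read 6.12 (5.01 ± 1.24 over 4, 2 above). Nuclear receptors had 20 of 39 (51.3%) above and a median percentile of 43.5. The glucocorticoid receptor NR3C1 read 10.76 (9.12 ± 0.58 over 10, all above), PPARG 8.04 (8.0 ± 0.07 over 2), the common partner RXRA 8.18 on 1 of 2 probe sets, the vitamin D receptor VDR 7.80 (6.03 ± 2.11 over 4) and the oestrogen receptor ESR1 4.88 (4.22 ± 0.37 over 5, none above).

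**Figure D4:**
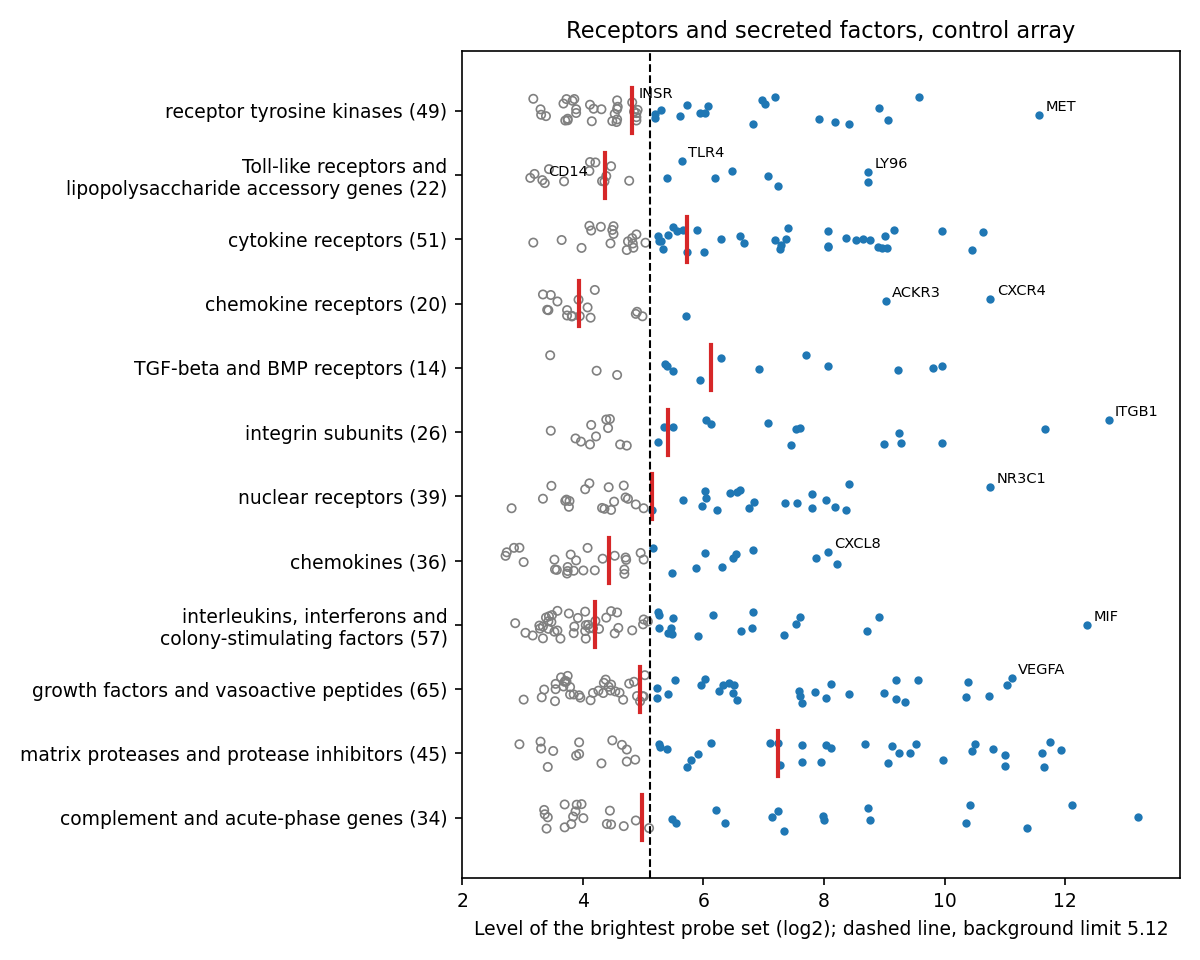
Log2 level of the brightest probe set of each measured gene in 12 lists of receptors and secreted factors on the control array; numbers in brackets are genes measured, filled points lie above the background limit of 5.12 (dashed), open points do not, and red bars are list medians. Chemokine receptors had 3 of 20 above the limit and cytokine receptors 34 of 51.

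Most chemokine and interleukin genes were at background. Of 36 chemokines 11 (30.6%) were above background, with a median percentile of 31.3. CCL26, an eosinophil attractant, read 8.22 from 1 probe set, CXCL8, the neutrophil attractant interleukin 8, 8.07 (6.65 ± 1.24 over 3 probe sets, all above), CCL2, the monocyte attractant, 7.87, CXCL1 6.82 (5.57 ± 1.76 over 2) and CXCL2 6.54 (6.11 ± 0.61 over 2), while CCL20 read 4.53. Interleukins, interferons and colony-stimulating factors had 18 of 57 (31.6%) above and a median percentile of 26.9. MIF, an abundant cytokine of many cells, read 12.36, LIF, of the interleukin 6 family, 8.91 (6.19 ± 2.49 over 3), IL32 8.71 and IL18 7.53, the last 2 from 1 probe set each. IL6 read 6.80 on 1 probe set and 4.2 on the other, IL1B 5.41, and the macrophage factor CSF1 6.16 (5.67 ± 0.48 over 3, all above). The CXCL8 promoter, at chr4:73740319-73740618 on the plus strand, is shown as an example of a match in these lists: TATAAA, in capitals, starts 31 bases before the start, and the observed over expected CpG is 0.35. TATAAA occurred in 40.7% of 27 chemokine promoters and 31.7% of 41 interleukin promoters, beside 7.7% of the whole table. Among genes not above background the share was 10.6%. TATAAA was not particular to these lists. It was present in 50.0% of 10 metallothionein and iron storage promoters and in 42.9% of 14 hepatocyte, neuron, muscle and erythroid marker promoters.
CXCL8: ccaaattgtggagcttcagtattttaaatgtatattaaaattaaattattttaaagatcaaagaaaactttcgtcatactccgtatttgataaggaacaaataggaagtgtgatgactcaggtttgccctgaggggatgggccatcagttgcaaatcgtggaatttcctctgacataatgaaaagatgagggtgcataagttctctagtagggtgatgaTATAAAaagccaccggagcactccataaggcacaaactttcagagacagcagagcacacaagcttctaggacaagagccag

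Among growth factors and vasoactive peptides 29 of 65 (44.6%) passed and the median percentile was 40.6. VEGFA, TGFA and ADM, given above, had the highest levels. They were followed by HDGF at 10.39 (8.12 ± 2.0 over 7 probe sets, all above) and GDF15, a stress-induced factor, at 10.36. PDGFC read 9.56 (7.39 ± 1.90 over 3), CCN3 9.34 (8.28 ± 1.51 over 2) and INHBB, an activin subunit, 9.20. PDGFB read 6.43 (5.35 ± 1.23 over 3), endothelin EDN1 5.96 (5.60 ± 0.51 over 2) and the connective tissue factor CCN2 5.42, on 1 of 3 probe sets. Insulin-like growth factor binding proteins had 4 of 7 above, a median percentile of 48.9, and lay at both ends: IGFBP3 at 12.19, IGFBP6 at 9.33 and IGFBP7 at 11.79 (5.60 ± 4.21 over 4, 1 above), against IGFBP1 at 2.78, IGFBP2 at 3.58 and IGFBP5 at 4.74, none of which passed on any probe set. IGFBP1, chiefly a product of liver, lay at percentile 0.3.

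Collagens and laminins had 23 of 35 (65.7%) above and a median percentile of 56.6, although the share was 20.0% beside 29.4% of all genes when each gene's dimmest probe set was used. COL4A1 and COL4A2, the basement membrane collagens, read 10.75 (7.57 ± 3.57 over 3 probe sets) and 10.98 (8.81 ± 2.17 over 3), COL6A1 11.58 (7.07 ± 2.84 over 6, 4 above), LAMC1 10.11 (7.70 ± 2.59 over 5) and NID1 10.45 (7.52 ± 3.16 over 3). LAMB1 read 10.48 on 1 of 2 probe sets, COL7A1 8.84 and LAMB3 7.52 on 1 of 2. The fibrillar collagen COL5A1 read 10.48 (8.50 ± 1.47 over 4, all above), and COL1A1, also fibrillar, 5.03 (4.16 ± 0.68 over 5, none above). Proteases and their inhibitors had 31 of 45 (68.9%) above and a median percentile of 69.0: matrilysin MMP7 11.61 (9.02 ± 4.01 over 4, 3 above), ADAM9 11.65 (10.32 ± 1.49 over 4), cathepsin B, CTSB, 11.01 (9.81 ± 1.32 over 4), and the coagulation inhibitors TFPI 11.93 (11.19 ± 0.65 over 3) and TFPI2 10.50 (9.85 ± 1.03 over 3). The collagenase MMP1 (3.31) and gelatinase MMP2 (3.94; 3.62 ± 0.38 over 4) were at background, the inhibitor TIMP1 read 9.42 (7.96 ± 2.48 over 3, 2 above) and PLAU, the urokinase, read 5.28 on 1 of 3 probe sets.

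Complement and acute-phase genes had 16 of 34 (47.1%) above and a median percentile of 41.0. The membrane regulators CD46 and CD59, which shield cells from complement, read 12.12 (8.95 ± 1.91 over 12 probe sets, all above) and 11.37 (8.20 ± 3.17 over 5, 4 above), and CD55 7.34 (6.31 ± 1.38 over 7, 6 above). The early proteases C1S and C1R read 10.35 and 8.76 (8.15 ± 0.77 over 3), the ferroxidase ceruloplasmin CP 10.42 (8.72 ± 2.02 over 4) and C3 7.14, with factor B, CFB, at 5.48 on 1 of 4 probe sets.

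Growth control genes, also listed after the array had been seen, had 21 of 23 (91.3%) above and a median percentile of 72.0, though with each gene's dimmest probe set the share was 21.7% beside 29.4% of all genes. The cell cycle inhibitor CDKN1A read 11.02 (9.62 ± 1.97 over 2 probe sets), MYC 9.56, cyclin CCND1 9.17 (7.15 ± 1.45 over 4), and the chromatin genes often mutated in this carcinoma, SETD2 and PBRM1, 7.81 (5.86 ± 1.70 over 3, 1 above) and 7.24 (5.12 ± 1.99 over 4, 2 above). The 2 members at background were the neighbouring cyclin kinase inhibitors CDKN2A (4.90; 4.26 ± 0.59 over 3) and CDKN2B (3.32; 3.11 ± 0.25 over 3), while MTAP, which lies beside them on the same chromosome, read 8.02 (7.17 ± 1.13 over 6, all above). Copy number was not measured.

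Cancer-testis and germline genes had 3 of 41 (7.3%) above and a median percentile of 13.2. PRAME, a cancer-testis antigen, read 8.74 from 1 probe set, ZP3, an egg coat protein, 7.36 (7.22 ± 0.19 over 2 probe sets) and LIN28B, an inhibitor of let-7 processing, 6.26 on 1 of 2, while MAGEA4 (3.21) and DAZL (3.02) were at background on all 3 of their probe sets each. Transcription factors that define other tissues had 9 of 37 (24.3%) above and a median percentile of 30.8: RUNX2 of bone read 8.4 on 1 of 2 probe sets, MITF of pigment cells 8.10 (7.65 ± 0.63 over 2), EBF1 of B cells 7.09 (5.81 ± 1.5 over 3) and PAX5 of B cells 7.52 on 1 of 10, where the mean was 4.43 ± 1.14. PAX5 is a paralogue of PAX8 and PAX2, and cross-hybridization was not tested. Closer to the limit lay POU5F1 of germ cells at 6.03 (both probe sets above), GATA1 of erythroid cells at 5.57 (2 of 3), NKX2-1 of lung and thyroid at 5.57 (1 of 2) and GATA4 of heart at 5.41 (1 of 3). MYOD1 (3.45), CDX2 (4.40) and SOX2 (5.08) did not pass.

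By family, sorted by gene symbol and with at least 12 named members, the share above background ran from none to all. No member passed among 14 NLRP inflammasome genes and 12 PCDHGA protocadherins, and 1 of 26 DEFB defensins and 1 of 18 PCDHB protocadherins did. All 49 MRPL and 28 MRPS mitochondrial ribosomal protein genes and all 12 PSMD proteasome genes passed, as did 34 of 35 VPS sorting genes and 48 of 51 EIF initiation factor genes. Between them lay the zinc finger ZNF genes, with 213 of 495 (43.0%), and the solute carriers, with 211 of 371 (56.9%). The share above the limit also differed with the number of probe sets per gene, as given above, and the part of that number in these families was not tested.

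Promoter composition varied with level on this array. The ratio of observed to expected CpG in the 300-base window had a median of 0.85 over 8583 genes above background and 0.51 over 5909 not above it. Windows with a ratio of at least 0.6 and at least 50% G and C, called CpG-rich here, made up 81.0% and 42.6% of these groups. TATAAA, searched on the gene's strand anywhere in the window, occurred in 3.8% and 10.6%. With genes cut by level into 10 bins of equal size, the median ratio was 0.39 in the dimmest bin, 0.75 in bin 5, 0.86 in bin 7 and 0.87 in the brightest. TATAAA occurred in 14.4% of the dimmest bin, in 2.3% of bin 8, the lowest share, and in 5.4% of the brightest. Across 14492 genes, which are not independent replicates, the rank correlation of level with the ratio was 0.43, given as a description. The PTPRC promoter at chr1:198638790-198639089, plus strand, is shown as an example of the leukocyte list: its single CpG, in capitals, gives a ratio of 0.12, and the 12 leukocyte promoters had a median of 0.23 with none CpG-rich.
PTPRC: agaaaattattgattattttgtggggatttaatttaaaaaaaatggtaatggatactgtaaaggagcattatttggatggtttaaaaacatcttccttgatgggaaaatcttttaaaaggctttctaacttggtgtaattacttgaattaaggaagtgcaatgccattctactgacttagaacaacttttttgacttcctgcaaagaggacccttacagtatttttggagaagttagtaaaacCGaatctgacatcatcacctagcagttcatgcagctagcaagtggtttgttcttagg
CpG content alone did not sort genes by the limit, since 42.6% of the windows of genes not above it were CpG-rich. Lineage factors of other tissues, 9 of 37 above background, had CpG-rich windows in 72.0% of 25 promoters, 6 of them of genes above background. Cancer-testis genes had them in 48.6% of 35, near the 42.6% of genes not above background. The share over all named genes with a promoter was 65.3%.

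**Figure D5:**
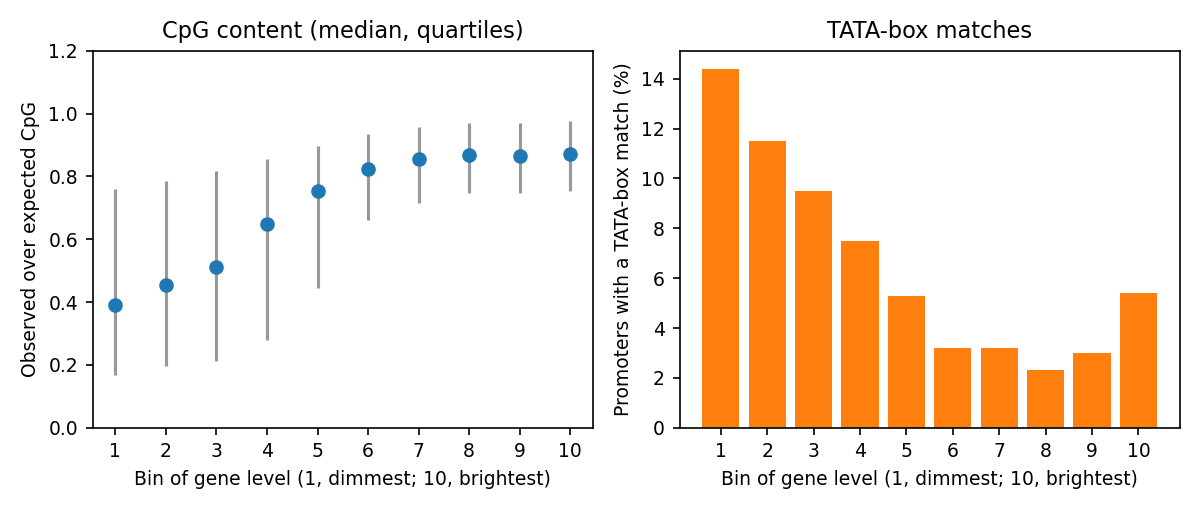
Left, median (points) and quartiles (lines) of observed over expected CpG in the 300-base promoter window in 10 equal bins of gene level on the control array; right, percent of promoters with TATAAA on the gene's strand. The CpG median was 0.39 in the dimmest bin and 0.87 in the brightest, and the TATAAA share was 14.4% in the dimmest bin, 2.3% in bin 8 and 5.4% in the brightest.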

How the data were processed

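The authors deposited 1 log2 level per probe set for 49386 probe sets. Per the submitters' processing notes, RMA and Partek produced them. Tool versions, the kind of background correction and which arrays were normalized together were not given in the sources used here. The RMA method subtracts background and gives arrays 1 distribution, so only levels within the control array were used, and 2 other columns of values were not. The platform annotation named 1 gene for 45259 probe sets and several for 1327, and 2800 were not listed; current symbols came from RefSeq (GRCh38.p14) for 45178. No probe set with several genes was used. A gene took its brightest probe set. The background limit, percentiles and promoter counts were computed with Python 3.11.15, numpy 2.4.6, pandas 2.3.3, scipy 1.17.1 and matplotlib 3.10.9, and the calculation was tested on simulated data.

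Lists numbered 43. The array, the members and the lists were chosen with earlier results of these data known, and 2 lists, of antioxidant and of growth control genes, were added after levels had been seen. The rule for named genes took the 30 brightest, and in each list its preset anchors and up to 8 brightest members, of which the text gives the anchors and examples of the rest; in lists of other cell types and silent genes also every member above background where these were 8 or fewer, and in any list the members at background where 5 or fewer. Y-linked genes and XIST were left out. Alternatives were the mean or dimmest probe set, plain-suffix probe sets only, no _x_at probe sets, symbols as annotated, 4 other limits and 2 other CpG measures. Array number limits precision.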

Additional observations from a re-analysis of the deposited data

Results flagged for a closer look

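A signal appeared outside the measurements used. Of 2713 probe sets that the annotation does not list, the array's own controls left out, 1086 (40.0%) lay above the background limit, with a median of 4.46 and a highest value of 13.29, the highest on the array. The share was 41.8% for 1327 probe sets with several genes and 46.5% for 45259 with 1 gene. The unlisted probe sets are unnamed here and were used in no count of genes.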

How the results depend on the processing

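No paired analysis was possible because each group had 1 array and no result came from a test. The count of named genes above background, 10372, was 5361 with each gene's dimmest probe set, 2812 of 8371 with plain-suffix probe sets alone and 6798 at the limit of 6.70 set on keratin-associated genes. The values below are, for lists, the percent of members above background minus that of all named genes, and the median percentile. Of 43 lists, 13 changed side of the share of all genes under at least 1 alternative: with plain-suffix probe sets the amino acid and nicotinamide list stood at -0.3 and the kidney transcription factors, fatty acid oxidation, epithelial junction and collagen lists also changed, and with the dimmest probe set growth control stood at -7.7 and the junction, keratin, TGF-beta and BMP receptor, integrin, binding protein, collagen and complement lists changed. Keratins, integrins and binding proteins changed with the mean over probe sets too, the last 2 also without _x_at probe sets and at the limits of 4.87 and 4.84, where glucose transporters changed as well. At the limit of 5.99 HOX genes and binding proteins changed, and at 6.70 HOX genes.

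With the dimmest probe set the difference was 20.6 for keratins, -14.4 for chemokine receptors, -8.0 for TGF-beta and BMP receptors, -7.2 for chemokines, -9.4 for collagens and laminins, -24.5 for cancer-testis genes, 48.7 for housekeeping genes and 46.4 for antioxidant genes. The median percentile became 24.7 for receptor tyrosine kinases, 44.7 for cytokine receptors, 45.4 for other G protein-coupled receptors, 50.5 for chemokines, 98.5 for housekeeping genes, 94.1 for antioxidant genes and 38.8 for growth control genes.

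Plain-suffix probe sets, which leave few members per list, gave a difference of 9.3 for epithelial junction genes, 39.1 for renal carcinoma genes, 33.1 for HOX genes, 49.7 for TGF-beta and BMP receptors, 28.9 for gluconeogenesis, -5.0 for fatty acid oxidation, 9.3 for fatty acid synthesis and -28.8 for cancer-testis genes. Their median percentile was 28.3 for proximal tubule, 45.7 for other nephron segments, 8.9 for leukocyte markers, 70.4 for HOX genes, 48.7 for the VHL and HIF machinery, 45.6 for receptor tyrosine kinases, 46.5 for other G protein-coupled receptors, 42.4 for chemokines, 41.3 for interleukins, 77.7 for citrate cycle genes, 58.6 for fatty acid synthesis, 38.2 for lineage factors of other tissues, 25.5 for cancer-testis genes, 97.7 for housekeeping genes and 82.0 for growth control genes.

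The mean over probe sets gave 54.2 for housekeeping and 48.1 for antioxidant genes, and medians of 31.4 for receptor tyrosine kinases and 59.3 for growth control genes. Leaving out _x_at probe sets gave 44.8 for housekeeping genes. At the limit of 5.99 the difference was 47.2 for HIF targets, 44.5 for pentose phosphate, 54.5 for housekeeping and 48.4 for antioxidant genes, and at 6.70 it was 46.1 for citrate cycle, -32.4 for cancer-testis, 62.7 for housekeeping and 56.7 for antioxidant genes. The correlation of level with CpG, 0.43, was 0.38 for the CpG count, 0.41 when probe sets were averaged and 0.45 with the highest value over all starts, an alternative chosen after seeing the data. Of 461 named genes, 120 moved by more than 9.9 percentile points when probe sets were averaged and 272 when the dimmest was taken. The cause was not tested, beyond the fewer members of the plain-suffix setting.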
